A study of Mus musculus with 2 samples.

Results

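Mitochondrial ribosomal protein genes were followed in bone marrow-derived macrophages, taken as every gene of the deposited table whose symbol is Mrpl or Mrps followed by a number and at most 1 letter. The rule found 77 of 16218 genes, 48 of the large subunit (Mrpl) and 29 of the small subunit (Mrps). The rule reads the symbol alone and uses no measured value. The identifiers of all 77 carried the same symbol in the RefSeq gene table, and the deposited orthology annotation described 76 of them as ribosomal proteins of the subunit in their name (Mrpl57 had no such annotation).

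The study compared 2 genotypes of C57BL/6J mice with 1 RNA-seq library each. WT cells carried Lyz2-Cre, a Cre recombinase driven from the lysozyme 2 locus of myeloid cells. TKO cells carried the same Cre together with mir-106a~363-/-, mir-106b~25-/- and mir-17~92flox/flox. These alleles lack 2 microRNA clusters and flank the third with recombination sites, for removal in cells that express the Cre. Marrow of both genotypes was grown for 5 days in DMEM containing 10% FBS and 10% of medium conditioned by L929 cells, which secrete macrophage colony-stimulating factor, and was then given lipopolysaccharide (LPS), a bacterial cell wall component, at 10 ng/ml for 3 h. Polyadenylated RNA was sequenced, and no unstimulated cells entered the comparison. The labels do not give the number, age or sex of the mice behind each library.

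The mitochondrial ribosome translates the few proteins encoded by mitochondrial DNA, all of them subunits of the respiratory chain or ATP synthase. Its RNAs come from the mitochondrial genome, but its proteins are encoded in the nucleus, made in the cytosol and imported. The small subunit binds the messenger RNA and holds the decoding site, and the large subunit forms peptide bonds and releases the growing chain through its exit tunnel, which faces the inner membrane. Many proteins of both subunits descend from bacterial ribosomal proteins, and others are particular to mitochondria. In macrophages, LPS moves metabolism from respiration towards glycolysis.

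The libraries held 10764519 (WT) and 10836855 (TKO) estimated counts. Values below are counts per 1000000 of the library total (CPM), and each log2 ratio compares TKO with WT after 0.5 CPM was added to both. Folds are plain ratios of CPM with a 95% counting interval in parentheses, which covers counting error only and not the spread between cultures. With 1 library per genotype there was no replicate check and no p-value was computed. A gene counted as measured at a mean of 1 CPM or more, which 11662 genes reached, and all 77 mitoribosomal genes were among them.

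The macrophage identity of both libraries was checked with 9 marker genes, all of which were measured, at a summed 7189 CPM in WT and 7371 CPM in TKO. Mir17hg, the primary transcript of mir-17~92, had 16 counts in each library. Mcm7, a replication helicase gene that hosts mir-106b~25, had 608 and 496 counts and was 1.23-fold lower in TKO (1.09 to 1.39). A polyadenylated library does not show whether the mature microRNAs were lost. Of 10 fibroblast and stromal markers, 9 were measured. Of these, 6 were 1.5-fold or more lower in TKO with an interval excluding equality, against 5.6% of all measured genes. The summed level of the 10 markers, 451 CPM in WT, stood against 183 CPM in TKO and was 2.46-fold lower (2.33 to 2.59). Markers of neutrophils (65 and 62 counts summed), T and NK cells (97 and 74), B cells (15 and 11) and dendritic cells (101 and 118) were scarce in both libraries, and the neutrophil marker Ly6g had 0 counts in WT and 1 in TKO. The part of these cells in the ratios below was not tested, and fewer cells of a type cannot be told apart from less RNA per cell.

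Mitoribosomal transcripts were of moderate and similar abundance in both libraries. Together they took 0.153% of the WT counts (Clopper-Pearson interval 0.151 to 0.156) and 0.144% of the TKO counts (0.142 to 0.146). Single genes had 47 to 591 counts in WT, with a median of 205, and 53 to 629 in TKO, with a median of 179. Levels of different genes are compared in the deposited FPKM, which are divided by gene length. The median was 15.4 FPKM in WT and 13.8 FPKM in TKO for the large subunit, and 13.7 FPKM and 12.2 FPKM for the small subunit. Members ranged from 2.81 to 77.1 FPKM in WT, a span of 27.4-fold, although the assembled particle holds most of these proteins in single copy. The middle 50% of large subunit genes lay between 8.18 and 26.8 FPKM in WT, and that of small subunit genes between 9.96 and 19.5 FPKM.

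The order of levels was nearly shared by the libraries. Mrpl52 was highest, at 77.1 FPKM in WT and 82.9 FPKM in TKO, followed by Mrps21, the homolog of a bacterial small subunit protein, at 68.3 and 66.2 FPKM. Mrpl20, whose bacterial homolog is needed early in large subunit assembly, followed at 66.0 and 58.9 FPKM. Below them came Mrpl54 of the stalk base at 51.3 and 55.4 FPKM, Mrpl30 at 46.8 and 46.6 FPKM, and Mrpl13 at 46.7 and 42.2 FPKM. The highest small subunit genes after Mrps21 were Mrps18c (46.1 and 36.2 FPKM), Mrps18a (43.4 and 41.4 FPKM) and Mrps15 (43.2 and 35.0 FPKM). At the other end stood Mrpl17 of the exit tunnel at 2.81 and 2.75 FPKM. Its deposited gene length was 6712 bases against 412 for Mrpl52, and it had 205 and 202 counts, close to the median of all members. Across the 77 genes, the rank correlation of FPKM with gene length was -0.58 in each library, while that of the count with length was 0.15 in WT and 0.16 in TKO. These are descriptions over genes, with length in the denominator of one side. FPKM in WT and TKO were correlated over the 77 genes with a Spearman coefficient of 0.979.

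**Figure D1:**
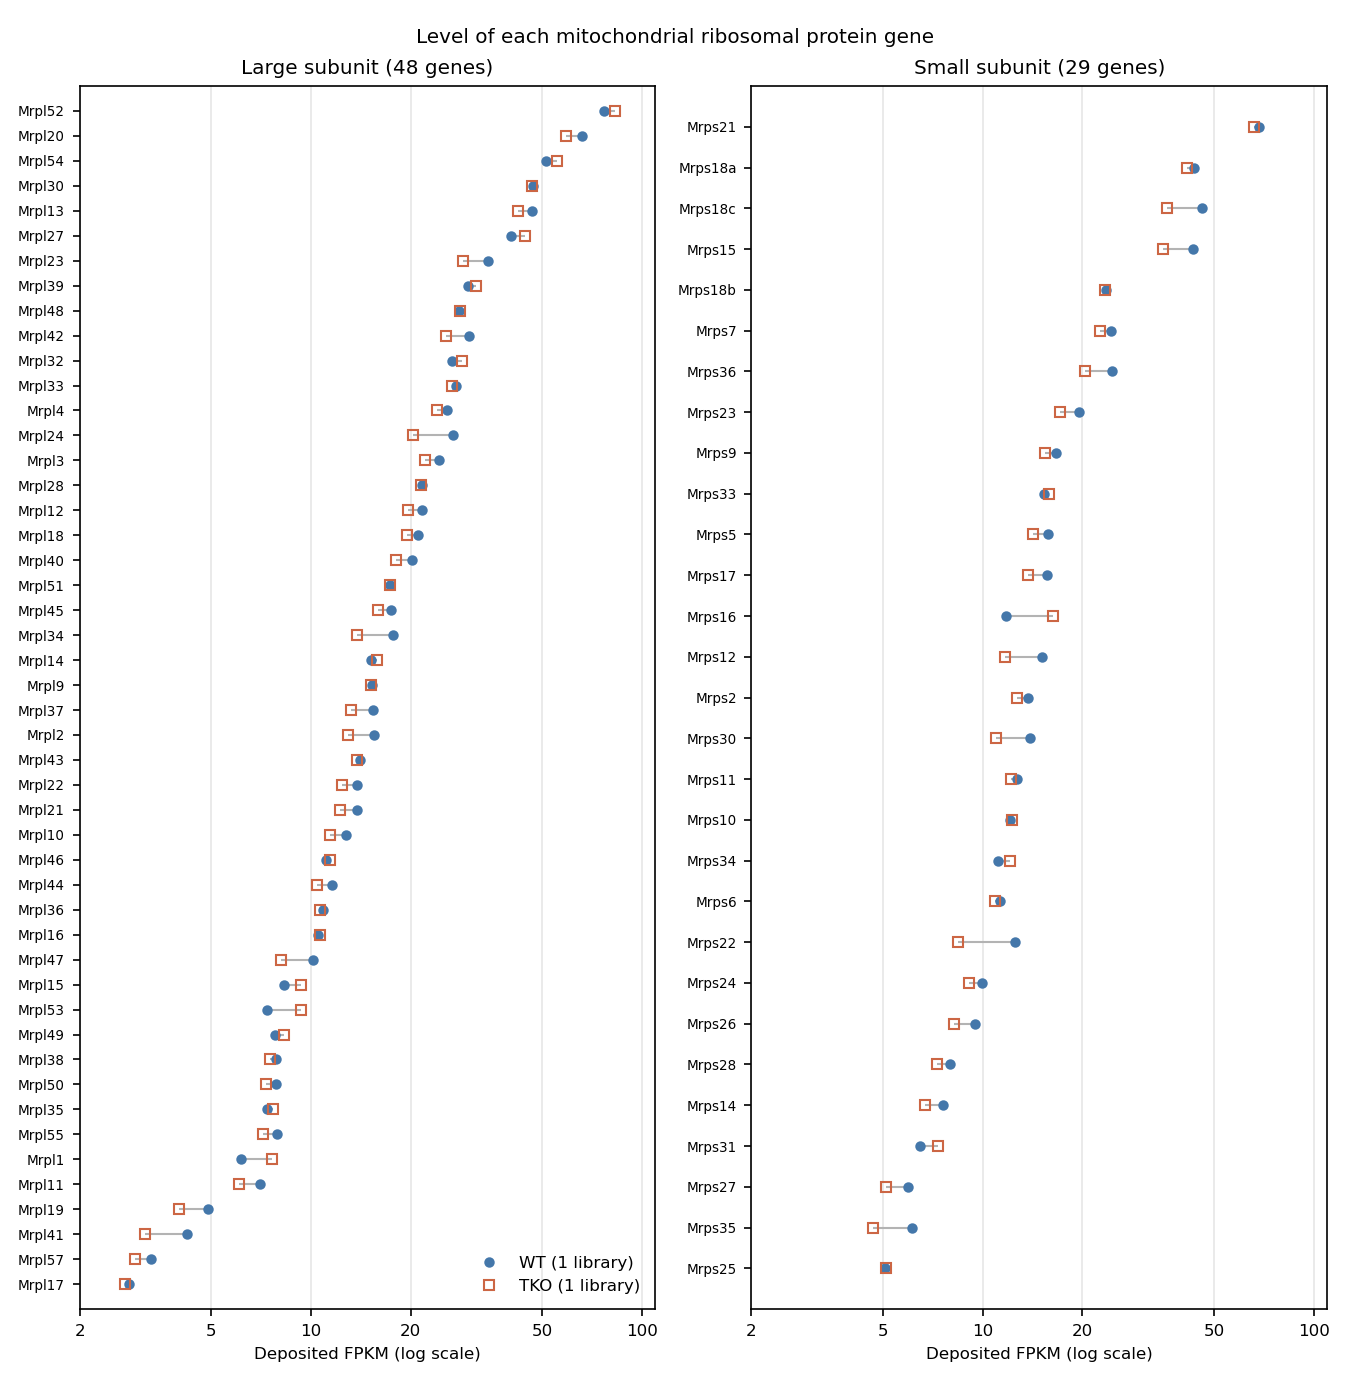
Deposited FPKM (log axis) of the 48 large subunit genes (left) and the 29 small subunit genes (right) in the WT library (filled circles) and the TKO library (open squares), sorted by the mean. The 2 values of most genes nearly coincide, and levels run from below 3 FPKM for Mrpl17 to 77.1 and 82.9 FPKM for Mrpl52.

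Other ribosomal and respiratory genes were more abundant. The median FPKM of 77 measured genes of the cytosolic ribosome, the particle that translates nuclear messages, was 30.7 times that of the mitoribosomal genes in each library, at 463 and 407 FPKM. The median of 75 measured nuclear genes of the respiratory chain and ATP synthase was 4.10 times higher in WT (61.9 FPKM) and 4.44 times higher in TKO (58.9 FPKM).

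The TKO library held slightly less mitoribosomal RNA than the WT library. Summed over the 77 genes, 16505 counts in WT stood against 15596 in TKO, 1.07-fold lower (1.04 to 1.09). The 6000 measured genes within the CPM range of the members summed to a level 1.03-fold lower in TKO. The median log2 ratio of the 77 genes was -0.11, with an order-statistic interval over genes of -0.15 to -0.04. It was -0.04 for all measured genes and -0.06 for those 6000, a value inside the interval of the members. Of the 77 genes, 56 (72.7%) were below 0, where 57.4% of all measured genes and 60.3% of the 6000 measured genes within the CPM range of the members were below 0. With scaling factors that assume most genes unchanged, the ratio of all genes shifted up by 0.04 and 48 (TMM) or 47 (DESeq2) members were below 0, with medians of -0.07 and -0.06.

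Subunits were compared next. Large subunit genes summed to 10778 counts in WT against 10341 in TKO and were 1.05-fold lower (1.02 to 1.08). With TMM this fold was 1.02 (0.992 to 1.05) and with DESeq2 scaling 1.02 as well, and both intervals included equality. Small subunit genes summed to 5727 and 5255, 1.10-fold lower (1.06 to 1.14), and 1.07-fold (1.03 to 1.11) with TMM. The large subunit made up 65.3% of all member counts in WT (64.6 to 66.0) and 66.3% in TKO (65.6 to 67.0). The ratio of small to large in TKO was 0.956 times that in WT, with an exact conditional interval of 0.913 to 1.00 whose upper bound lies just above equality, so the subunits were not shown to differ. By gene, the median log2 ratio was -0.09 for the large subunit (-0.15 to -0.01) and -0.12 for the small subunit (-0.20 to -0.05), a difference of 0.03. Below 0 were 33 of 48 large subunit genes and 23 of 29 small subunit genes, and 26 and 21 under DESeq2 scaling.

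The members differed little more from each other than counting alone would give. The SD of their log2 ratios was 0.168, and the root mean square of their counting errors was 0.163. Over all measured genes the SD was 0.43, and over those within the members' CPM range it was 0.41. For 69 of the 77 genes the interval included equality, and 63 (81.8%) lay within 1.2-fold of equality against 62.9% of the measured genes. All 77 lay within 1.5-fold, as did 87.7% of the measured genes. The measured genes include many with fewer counts and so larger counting errors, and these shares were not taken within the members' CPM range. The depth sets the resolution here, since the upper bound of a member's fold lay at a median of 1.23 times its value.

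**Figure D2:**
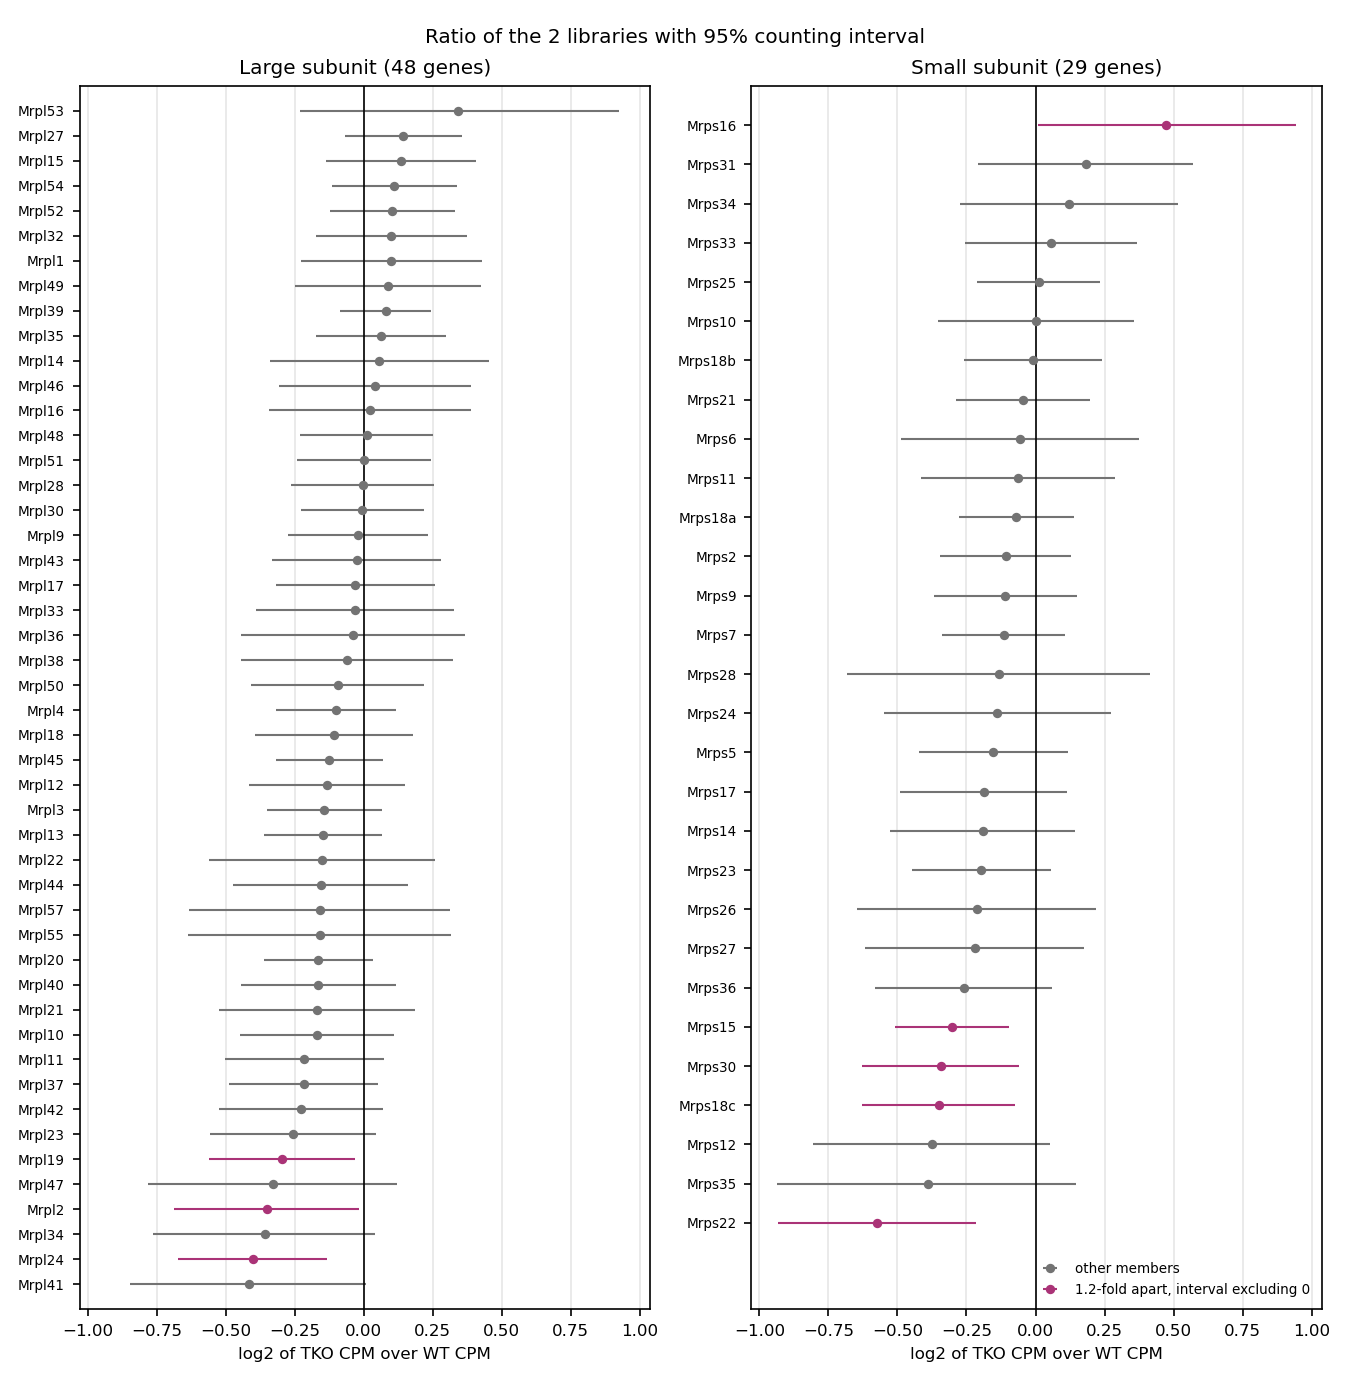
Log2 ratio of TKO CPM over WT CPM for each large subunit gene (left) and small subunit gene (right), with the 95% counting interval of 1 library against 1 library. Most intervals cross 0. The 3 coloured large subunit genes and 4 coloured small subunit genes on the left of 0 passed the 1.2-fold measure as lower in TKO, and Mrps16 was the 1 gene on the right.

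Genes were singled out when they were at least 1.2-fold apart with an interval excluding equality. In TKO, 7 of 77 members (9.09%) were lower by this measure, against 13.6% of all measured genes and 16.3% of those within the members' CPM range. In the other direction, 1 of 77 (1.30%) was higher, against 8.22% and 8.43%. At 1.5-fold no member passed in either direction, where 5.6% and 2.98% of the measured genes were lower and higher (5.62% and 3.03% within the range). With no minimum fold the counts stayed at 7 and 1, against 20.2% and 14.1% of the measured genes, or 18.9% and 10.1% within the range. Under the DESeq2 scaling 4 members were lower and 1 higher, and the background itself became 11.1% lower and 10.5% higher (11.3% and 10.2% with TMM).

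**Figure D3:**
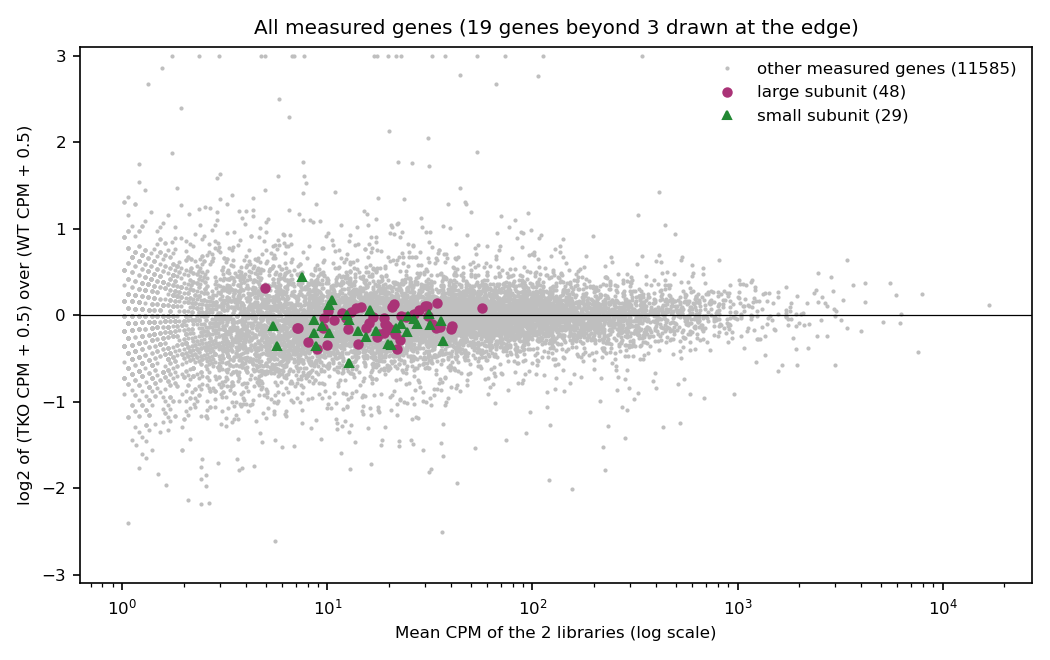
Log2 ratio of every measured gene against its mean CPM (log axis), with large subunit genes as circles and small subunit genes as triangles over the other measured genes in grey. The mitoribosomal genes form a narrow band next to 0, while genes of the same abundance reach the edge of the plot, where the 19 genes beyond a log2 ratio of 3 are drawn.

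Among small subunit genes, Mrps22 showed the lowest ratio. This protein has no bacterial counterpart, and mutations in its human counterpart cause a mitochondrial disease. Mrps22 (chromosome 9, 98588730 to 98601660, minus strand, 8 exons in the GRCm38 annotation) had 164 counts in WT and 111 in TKO, with 12.6 and 8.44 FPKM. It was 1.49-fold lower (1.16 to 1.91), a log2 ratio of -0.55. Mrps15, a homolog of a bacterial protein that binds ribosomal RNA early in assembly, had 436 and 356 counts, 1.23-fold lower (1.07 to 1.42). Mrps18c had 247 and 195 counts, 1.28-fold lower (1.05 to 1.55), and part of its exons overlaps another annotated gene on its own strand. Mrps30, with 237 and 188 counts, was 1.27-fold lower (1.04 to 1.55). Its exons overlap a gene on the other strand. All 4 had lower counts in TKO, and of them only the call of Mrps15 was lost under TMM and under DESeq2 scaling.

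Further down the same list stood 2 genes whose intervals included equality. Mrps35, a mitochondria-specific protein, had 69 and 53 counts, a fold of 1.31 (0.903 to 1.91). Mrps12, which lines the decoding site and is the homolog of the bacterial protein altered in streptomycin resistance, had 107 and 83 counts, a fold of 1.30 (0.965 to 1.75). These sizes match those of the genes above, but fewer counts leave wider intervals.

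Mrps16 was the member with the highest ratio. It is the homolog of a bacterial small subunit assembly protein, and its human counterpart is a mitochondrial disease gene. Mrps16 (chromosome 14, 20389304 to 20393634, minus strand, 3 exons) had 68 counts in WT and 95 in TKO, with 11.7 and 16.3 FPKM, a ratio of 1.39 (1.01 to 1.92). The lower bound lies next to equality. Next came Mrps31 (106 and 121 counts, log2 ratio 0.17), Mrps34 (105 and 115, 0.12), Mrps33 (171 and 179, 0.05) and Mrps25 (334 and 339, 0.01). The intervals of those 4 included equality.

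Large subunit genes spanned a narrower range. The lowest was Mrpl41, a mitochondria-specific protein, with 110 and 83 counts and a fold of 1.33 that included equality (0.994 to 1.80). Mrpl24 (chromosome 3, 87919506 to 87923672, plus strand, 6 exons) sits at the mouth of the exit tunnel in the large subunit. It had 269 and 205 counts, with 26.9 and 20.4 FPKM, and was 1.32-fold lower (1.10 to 1.59). Its exons overlap those of Rrnad1 on the other strand, and the counts of such pairs cannot be told apart without strand information. Mrpl2, the homolog of a conserved protein next to the peptidyl transferase centre, had 171 and 135 counts, 1.28-fold lower (1.01 to 1.61). Mrpl19, which lies at the interface between subunits, had 267 and 219 counts, 1.23-fold lower (1.02 to 1.47). Mrpl19 is outside the rule for named genes and was named after its values were seen. The deposited counts of Mrpl19 were fractional, and it overlaps Gcfc2 on the other strand. Of the 3 genes that passed, Mrpl24 alone also passed under TMM and under DESeq2 scaling.

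Mrpl34 (121 and 95 counts, log2 ratio -0.34) and Mrpl47 (96 and 77, -0.31) completed the lowest 5 of the large subunit, with intervals that included equality. At the high end, Mrpl53 had 47 and 60 counts and a log2 ratio of 0.31, the smallest count of all members in WT, with a ratio of 1.27 (0.851 to 1.90). Mrpl27 (349 and 388 counts), Mrpl15 (218 and 241), Mrpl54 (309 and 336) and Mrpl52 (317 and 343) followed with log2 ratios of 0.14, 0.13, 0.11 and 0.10. None of these 5 intervals excluded equality, so no large subunit gene was higher in TKO beyond counting error.

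In the authors' deposited table, 3 of the 77 members (3.90%) had an adjusted value of at most 0.05, against 25.2% of the measured genes and 18.8% of those within the members' range. They were Mrps22 at 0.0085, Mrpl24 at 0.0172 and Mrps15 at 0.0213, and all 3 were lower in TKO. The test behind these values is not given in the sources used here, and it compares 2 libraries. The sign of the deposited log2 ratio was that of the count ratio for all 77 members. The largest gap between them was 0.217, for Mrpl1, at 0.31 in the authors' deposited table and 0.10 from counts. Mrpl1 was named for this gap.

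The genes were then grouped by the place of their protein in the particle. The stalk recruits translation factors, and its 5 genes had a median log2 ratio of -0.13. Of the stalk proteins, Mrpl11 had 219 and 190 counts, Mrpl10 had 230 and 206, and Mrpl12, which forms the mobile stalk, had 219 and 201. Mrpl54 and Mrpl53 at the stalk base were above 0. None of the 5 passed the 1.2-fold measure, against 13.6% (lower) and 8.22% (higher) of the measured genes.

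The central protuberance contacts the transfer RNAs and in mammalian mitochondria is built around a transfer RNA in place of a ribosomal 5S RNA. Its 6 genes had a median of -0.08 and ranged from 0.04 for Mrpl46 to -0.37 for Ict1. Ict1 is the deposited symbol of Mrpl58, a peptidyl-tRNA hydrolase built into the large subunit, and falls outside the name rule (103 counts in WT and 79 in TKO, a fold of 1.31 with an interval of 0.970 to 1.78). Mrpl18 (213 and 199 counts), Mrpl38 (118 and 114), Mrpl40 (226 and 203) and Mrpl48 (283 and 287) lay within 1.2-fold of equality.

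Proteins around the exit tunnel guide the nascent chain to the insertion machinery of the inner membrane. Of these 8 genes, 7 were below 0, with a median of -0.15, and Mrpl24 passed the 1.2-fold measure. Mrpl45, which ties the ribosome to the inner membrane, had 457 and 422 counts. Mrpl23 had 205 and 173 counts, Mrpl22 had 108 and 98, and Mrpl44 had 176 and 159. Mrpl39, the member with the most counts, had 591 and 629 and was the 1 gene of the group above 0. With both other scalings Mrpl17 was also above 0.

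All 6 genes of the decoding region and messenger RNA path of the small subunit were below 0, with a median of -0.12 (5 of 6 under DESeq2 scaling, where Mrps21 lay at 0). None was past 1.2-fold with an interval excluding equality, against 13.6% (lower) and 8.22% (higher) of the measured genes. Beside Mrps12 the group held Mrps5 (244 and 221 counts), Mrps7 (353 and 328), Mrps11 (140 and 135), Mrps21 (289 and 282) and Mrps24 (106 and 97). The medians of these 4 groups, from -0.08 to -0.15, lay on both sides of the -0.11 of all members.

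Homologs of bacterial ribosomal proteins form the core of both subunits. The 45 homologs had a median log2 ratio of -0.11, with 36 below 0 (29 under DESeq2 scaling), and the 28 mitochondria-specific genes had a median of -0.07, with 16 below 0 (15 under DESeq2 scaling). Mrpl55, Mrps18a, Mrps18b and Mrps36 were placed in neither class, and Mrpl55 is named for this alone. In the large subunit the medians were -0.10 (29 homologs) and -0.04 (18 mitochondria-specific, 0.0026 under DESeq2 scaling), and in the small subunit -0.12 (16) and -0.20 (10). The order of the classes thus turned between the subunits, and the intervals of all 4 medians overlap.

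Some names do not match the place of the protein. Mrps18a, Mrps18b and Mrps18c are paralogs of a single bacterial gene: Mrps18c keeps the bacterial place, Mrps18b sits elsewhere in the small subunit, and Mrps18a lies in the large subunit. Mrps18a had 393 counts in WT and 377 in TKO, a fold of 1.05 (0.909 to 1.21). Mrps18b had 268 counts in each library. Only Mrps18c had an interval excluding equality, and the trio together had 908 and 840 counts. Whether the paralogs differ from each other was not tested. Mrps30 also lies in the large subunit, and Mrps36 is known as a part of the 2-oxoglutarate dehydrogenase complex and had 182 and 153 counts, a ratio of 0.835 (0.669 to 1.04). With Mrps30 and Mrps18a moved to the large subunit and Mrps36 left out, the log2 ratios of the summed counts were -0.07 (large) and -0.13 (small), as before.

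Mitoribosomal proteins with other names gave like values. Dap3, a GTP-binding small subunit protein first described in cell death, had 321 and 345 counts. Chchd1 had 118 and 95 counts, a fold of 1.25 (0.946 to 1.66), and Ptcd3, Aurkaip1 and Gadd45gip1 had log2 ratios of -0.21, -0.10 and -0.13. None of these 5 passed the 1.2-fold measure, against 13.6% (lower) and 8.22% (higher) of the measured genes.

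Factors that build and modify the mitoribosome were taken as a list of 23 genes. Of these, 3 were lower and 2 higher by the 1.2-fold measure, against 13.6% and 8.22% of the measured genes. The same genes also passed at 1.5-fold, as did 5.6% and 2.98% of the measured genes. The median of the list was -0.09. Ftsj2, the deposited symbol of the 2'-O-methyltransferase Mrm2 of the large ribosomal RNA, had 26 counts against 11 in TKO and was 2.38-fold lower (1.14 to 5.34). Rbfa, a small subunit maturation factor, had 158 and 99 counts, 1.61-fold lower (1.24 to 2.09). Malsu1, which keeps the immature large subunit from joining, had 77 and 48, 1.61-fold lower (1.11 to 2.37), and was named with Mtg2 after their values were seen. Ngrn, which is needed for the large ribosomal RNA, had 26 and 68 counts, a ratio of 2.60 (1.63 to 4.25), and the GTPase gene Mtg2 had 62 and 97, a ratio of 1.55 (1.12 to 2.17). Mrm1, another methyltransferase of the large ribosomal RNA, had 19 and 34 counts, a ratio of 1.78 that included equality (0.986 to 3.30). The SD of the log2 ratios was 0.45 over these 23 genes, most of which had fewer counts than the median mitoribosomal gene and so larger counting errors.

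No gene of 13 mitochondrial translation factors passed the 1.2-fold measure, which 13.6% (lower) and 8.22% (higher) of the measured genes passed. The median of these 13 genes was -0.12. The lowest were Taco1, a translational activator, with 57 and 43 counts, and Mtfmt, the formyltransferase of the initiator tRNA, with 125 and 102. The highest were Mtrf1l, a release factor, with 39 and 50, and the elongation factor gene Gfm1 with 500 and 548. Nor did any of 13 genes of mitochondrial transcription and RNA processing pass, with a median of -0.11. The lowest were the elongation factor gene Tefm (37 and 28 counts) and the RNA polymerase gene Polrmt (168 and 141), and the highest Trmt10c (94 and 111) and Slirp (141 and 143). The transcription factor Tfam, named from outside the rule, had 175 and 163 counts.

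Among 11 genes known as regulators of mitochondrial biogenesis or growth, 10 were measured. By the 1.2-fold measure 2 were lower and 1 higher, against 13.6% and 8.22% of the measured genes. Myc, a growth regulator, had 91 and 64 counts, 1.43-fold lower (1.03 to 2.00). Its antagonist Mxi1 had 338 and 240 counts, a ratio of 0.705 (0.595 to 0.835). The coactivator gene Ppargc1b had 68 and 47 counts, a ratio of 0.687 (0.463 to 1.01). Yy1, a zinc finger factor, had 706 and 857 counts, a ratio of 1.21 (1.09 to 1.33). Gabpa, which activates nuclear genes for mitochondria, had 906 and 918 counts. Nrf1, with a like role, had 347 and 336, and was named, as was Myc, from outside the rule.

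Genes of the respiratory chain and ATP synthase had a median of -0.11, with 56 of 75 below 0. By the 1.2-fold measure 15 were lower and 0 higher, against 13.6% and 8.22% of the measured genes. Ndufa11 of complex I was the lowest at 215 and 146 counts, a ratio of 0.675 (0.543 to 0.836), followed by Cox8a of cytochrome c oxidase at 640 and 466. Ndufa10 (691 and 772 counts) and Ndufs5 (381 and 425), both of complex I, were the highest. Genes of the cytosolic ribosome had a median of -0.17, with 72 of 77 below 0. By the 1.2-fold measure 19 were lower and 1 higher, beside the same shares of the measured genes. Rps29 was the lowest, at 2910 and 1773 counts, 1.65-fold lower (1.56 to 1.75), followed by Rpl36 at 857 and 539 counts. Rps4l (46 and 87 counts) and Rpl36a (2134 and 2294) were the highest. These genes have many near-identical processed copies, so their single values are uncertain. Cytosolic genes had many more counts and narrower intervals, so shares that passed are not compared between lists. With DESeq2 scaling the medians were -0.06 (mitoribosomal), -0.07 (respiratory) and -0.12 (cytosolic), with 47, 49 and 64 genes below 0.

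**Figure D4:**
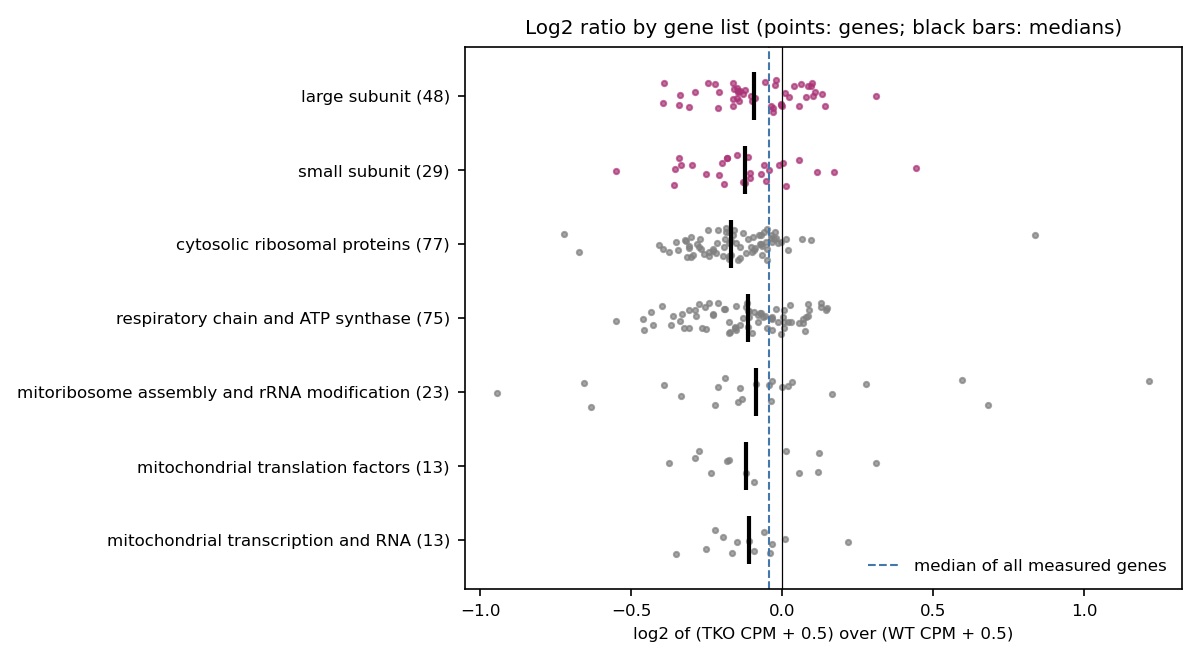
Log2 ratio of each measured gene (points) in the 2 subunits of the mitoribosome and in lists of related genes, with the number of genes in parentheses. Black bars are medians and the dashed line is the median of all measured genes, -0.04. The medians of the large and small subunit, -0.09 and -0.12, lie between that line and the cytosolic ribosomal median of -0.17, and the assembly factors spread furthest.

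The deleted clusters encode microRNAs of 4 seed families. A microRNA pairs through its seed, bases 2 to 8, with matching sites in the 3' untranslated region (UTR) of a message and lowers that message, so genes with such sites are the candidates for direct targets. The RefSeq mature sequences (GRCm38.p6, chromosome 14, plus strand) of 1 microRNA of each family from mir-17~92 are shown to define the sites, with the seed in capitals:
mmu-miR-17-5p: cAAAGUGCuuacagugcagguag
mmu-miR-18a-5p: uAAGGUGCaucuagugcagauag
mmu-miR-19b-3p: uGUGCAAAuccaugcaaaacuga
mmu-miR-92a-3p: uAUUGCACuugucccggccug

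Few mitoribosomal messages held such sites, and their 3' UTRs were short. The longest annotated 3' UTR of a member had a median of 387 bases, against 1221 bases for 11149 measured genes. At least 1 site of the 4 families was found in 16 of 77 members (20.8%) and in 34.2% of the measured genes. The median log2 ratio was -0.08 for the 16 members with a site and -0.11 for the 61 without. Over all measured genes these medians were -0.01 and -0.06. The site of the miR-17 family, GCACTTT, was in 7 members (9.09% against 14.9% of the measured genes): Mrpl1, Mrpl3, Mrpl35, Mrpl51, Mrps5, Mrps24 and Mrps35. Their median was -0.13, against -0.11 without the site, and 3 of the 7 were above 0, while among all measured genes the medians were 0.01 with the site and -0.05 without. Sites of miR-18 were in 6 members, with a median of -0.15 against -0.10 without the site and 0 of 6 above 0. Those of miR-19 were in 4 members (-0.01 against -0.11, 2 above 0) and those of miR-92 in 3 (-0.03 against -0.11, 1 above 0).

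The sites themselves are shown for the members with 2 copies or with the site nearest to the stop codon, and for Mrps16, the member with the highest ratio, read from the annotated transcripts with the site in capitals:
Mrpl51 at base 233 of 2850: tattgctgGCACTTTctgacact
Mrpl51 at base 1148 of 2850: cctctgctGCACTTTgcttttgt
Mrpl3 at base 32 of 2743: tgcttcgtGCACTTTgatgaacc
Mrps24 at base 6 of 466: aaagtGCACTTTtctccagt
Mrps16 at base 1780 of 2023: gtgggtcaGTGCAATtagtttcc

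Mrpl51, with its annotated pair of miR-17 sites, had 280 counts in WT and 282 in TKO, a ratio of 1.00 (0.845 to 1.18). Its deposited gene length of 1515 bases was shorter than its annotated 3' UTR of 2850 bases. Whether the counted gene held both sites was not tested. Mrpl3 had 399 and 364 counts, a ratio of 0.906 (0.784 to 1.05), and Mrps24 a ratio of 0.909 (0.683 to 1.21). None of these 3 was higher in TKO beyond counting error. Mrps16, with a miR-92 site far from the stop codon, was the member described above with a ratio of 1.39. Its deposited gene length was 566 bases, shorter than the annotated 3' UTR of 2023 bases, so a gene of that length cannot hold this site. Likewise, Mrps35 had a deposited length of 1067 bases and its miR-17 site at base 1624 of the annotated 3' UTR. For Mrps5 the length was 1448 bases, with a miR-17 site at base 2520 and a miR-18 site at base 2258. For Mrpl3 it was 1531 bases, with the miR-18 site at base 1969. The counts and medians of members with a site, given above, include these genes. Whether the annotated 3' UTRs are the ones used in these cells was not tested. Mrpl51, Mrpl3 and Mrpl35 were named for their sites.

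Transcription start regions of these genes were compared with those of other genes, since promoters of nuclear genes for mitochondria are known for binding sites of NRF1, ETS factors such as GABP, and YY1. RefSeq promoters (GRCm38.p6, 250 bases before to 50 after the start) were found for 68 of the 77 members, 74 promoters in all. Exact matches on either strand were counted for 4 motifs. GCGCATGCG, the core of the NRF1 site, was in 9.46% of member promoters against 3.67% of those of measured genes and 1.75% of all 32851. ACTTCCGG, an ETS site, was in 16.2% against 8.34% and 3.89%. AAGATGGC, a YY1 site, was in 16.2% against 4.64% and 2.75%. CACGTG, the E-box bound by Myc and Max, was in 9.46% against 9.96% and 7.15%, and 3 of its 7 promoters are alternative starts of Mrpl2 that share 1 match. No matches of different motifs overlapped. A TATAAA box within 50 bases before the start was in 0% of the member promoters and in 1.33% of those of measured genes, and the median GC content was 58.5% and 60.7%.

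**Figure D5:**
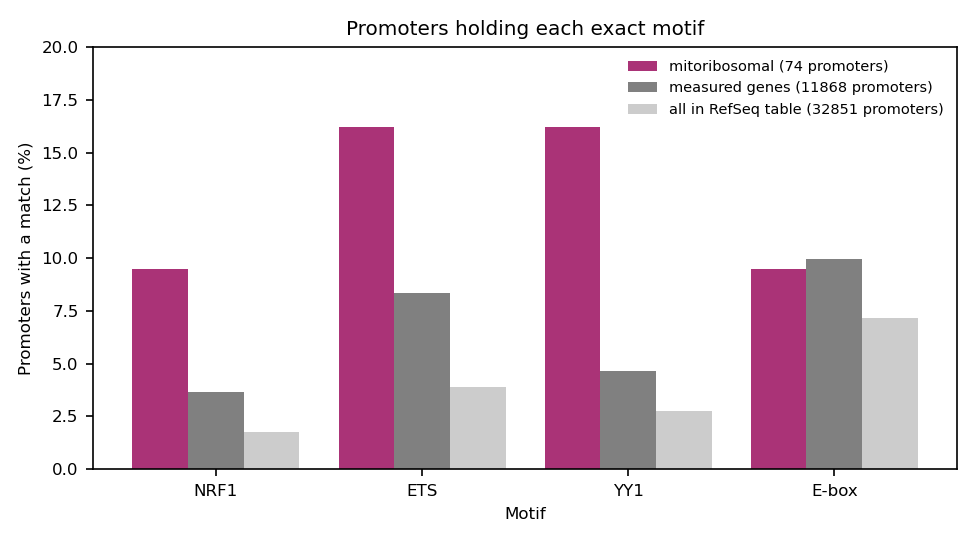
Share of promoters with an exact match on either strand to each of 4 motifs, for 74 mitoribosomal promoters, the promoters of measured genes and all promoters. The bars of NRF1, ETS and YY1 are higher for mitoribosomal promoters (9.46%, 16.2% and 16.2%), and those of the E-box are not higher than for measured genes.

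At least 1 of the motifs was found for 31 members. For 1 member per motif the match is shown in its promoter, in capitals, with its GRCm38.p6 position; these are 3 genes with low ratios and Mrpl22 of the exit tunnel, read along the strand of the gene:
Mrps22, ETS, chr9:98601680-98601710, minus strand: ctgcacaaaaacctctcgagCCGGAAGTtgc
Mrps12, YY1, chr7:28741993-28742040, minus strand: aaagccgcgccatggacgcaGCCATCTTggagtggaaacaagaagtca
Mrpl22, NRF1, chr11:58171611-58171659, plus strand: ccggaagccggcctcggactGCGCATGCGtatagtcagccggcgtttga
Mrps18c, E-box, chr5:100798576-100798621, plus strand: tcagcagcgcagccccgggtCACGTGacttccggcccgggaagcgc

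In the Mrps18c promoter the E-box is followed at once by an ETS match. The Mrps12 match begins at base -199 from the start of the gene. Its neighbour Sars2 starts 172 bases away in the opposite direction, so the match lies within Sars2 and may belong to either gene. Members with an NRF1 match had a median log2 ratio of -0.02 (7 genes, 0.02 under both other scalings, against -0.12 for those without), members with an ETS match -0.07 (12 genes, -0.12), members with a YY1 match -0.09 (12 genes, -0.11) and members with an E-box -0.21 (5 genes, -0.11). The E-box genes Mrpl2, Mrpl20, Mrpl36, Mrpl37 and Mrps18c were all below 0 (Mrpl36 was above 0 under both other scalings). Of them, Mrpl2 and Mrps18c passed the 1.2-fold measure as lower, as did 13.6% of all measured genes. Under TMM and DESeq2 scaling Mrpl2 no longer passed. Ratios of all measured genes with each motif were not taken, and the part of these motifs in the ratios was not tested. A match is a description of the letters and does not show binding.

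The genes lie scattered over 17 chromosomes, with 10 on chromosome 11 and 0 on X. A protein-coding neighbour starting within 1000 bases in the opposite direction was annotated for 18 members (23.4%), against 10.7% of 11168 measured protein-coding genes. The partner was measured in 16 of these 18 pairs. In 9 of the 16 both genes lay on the same side of 0, and the median was -0.12 for the members and for the partners. Among the pairs were Mrps12 with Sars2, the mitochondrial seryl-tRNA synthetase gene (116 and 100 counts), and Mrpl49 with Fau (3405 and 3151 counts), which encodes a cytosolic ribosomal protein. Mrpl46 and Mrps11, 1 gene of each subunit, lie head to head on chromosome 7 with overlapping first exons and had log2 ratios of 0.04 and -0.06. Exons of 32 members overlap another annotated gene, 27 of them a gene on the other strand. The 45 members free of overlap had a median of -0.12, with -0.10 in the large and -0.14 in the small subunit.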

How the data were processed

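Polyadenylated RNA of 2 macrophage libraries was sequenced, 1 per genotype. HISAT2 2.0.4, Bowtie2 2.2.5, RSEM 1.2.12 and build mm10 were named per the submitters' processing notes, which do not state what each was used for. For annotation, filters and strand setting, nothing is given in the sources used here. The authors deposited estimated counts per gene, FPKM (in which 0.01 stands for 0), the log2 ratio of the 2 FPKM values, a p-value and an adjusted value per the file headers. The deposited adjusted value was treated as a score because it reaches 1.04.

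Here counts were rounded to whole numbers and scaled to CPM by the library total. The 1 entry without a gene symbol (1 count in each library, 9.29e-06% of WT and 9.23e-06% of TKO counts) was left out. Ratio intervals are exact Clopper-Pearson intervals of the conditional binomial at 95%, and reads amplified by PCR are not independent molecules. A count of 0 allows up to 3 counts. Intervals of medians are order-statistic intervals taken over genes, and genes are no replicates. Scripts were tested on simulated data. Python 3.11.15, scipy 1.17.1, edgeR 4.0.16 and DESeq2 1.42.0 (scaling factors only) were used.

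Alternatives were TMM and DESeq2 scaling, unrounded counts, deposited FPKM, pseudocounts of 0.1 and 1 CPM, no filter or 10 CPM, and other subunit membership. Named genes were the 5 lowest and 5 highest ratios and the 5 highest FPKM of each subunit, fixed structural groups, paralogs and genes whose place differs from their name, and the 2 lowest and highest of each comparison list; others are said to be named after their values were seen or for their sites. The genes, lists and rules were chosen with earlier results of these data known. Gene positions and 3' UTRs came from GENCODE M21 (GRCm38), and microRNA and promoter sequences from RefSeq (GRCm38.p6).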

Additional observations from a re-analysis of the deposited data

How the results depend on the processing

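With 1 library per genotype, no replicate could be left out. No paired analysis was possible because each genotype has 1 library and the labels carry no replicate numbers. Of the alternative values of the summary results, 56 stayed within the 95% interval of the reported value (counts of genes, within 1.5 times), 5 did not and 0 reversed. Sizes still changed: with DESeq2 scaling the median of all members went from -0.11 to -0.06 and that of the large subunit from -0.09 to -0.05, and at 10 CPM the large subunit median was -0.06 and large minus small 0.05 in place of 0.03. The log2 ratio of the summed large subunit counts, -0.07, became -0.0282 with TMM and -0.0243 with DESeq2 scaling, and its interval then included equality. The number of members lower by 1.2-fold went from 7 to 4 with TMM and to 4 with DESeq2 scaling (Mrpl2, Mrpl19 and Mrps15 no longer passed). The number higher went from 1 to 0 at a minimum of 10 CPM, which kept 63 members and removed Mrps16. Without a filter no member was added. Both other scalings moved every ratio up by 0.04, and 8 (TMM) and 9 (DESeq2) members with ratios near 0 then had the other sign. Adding Ict1 to the large subunit, and limiting the background to genes in the members' CPM range, were chosen after seeing the data; the first gave a large subunit median of -0.10. Depth limits single genes to differences of about 1.23-fold, and the culture-to-culture spread is unknown.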
